A study of Mus musculus with 12 samples.

Results

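The aryl hydrocarbon receptor (AhR) battery was taken as 7 named genes: the receptor *Ahr*, its DNA-binding partner *Arnt*, its repressor *Ahrr*, and the target genes *Cyp1a1*, *Cyp1a2*, *Cyp1b1* and *Tiparp*. All 7 were found among the 55401 gene identifiers of each mouse's table, and 4 of the 7 (*Ahr*, *Arnt*, *Cyp1b1* and *Tiparp*) had enough reads to be among the 14159 genes tested. These 4 had at least 83 expected counts in every mouse, so their entry did not depend on a group. Male C57BL6 mice, which the study's text gives as 8 weeks old, received a single intraperitoneal injection of vehicle (15% 2-hydroxypropyl-beta-cyclodextrin, n = 6) or of SK-124 (n = 6), a small molecule that inhibits the salt-inducible kinases SIK2 and SIK3. The study's text gives an SK-124 dose of 40 mg/kg, and no time between injection and kidney collection is stated in it for this RNA-Seq experiment. All mice were wild-type, and each whole kidney gave 1 library.

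AhR is a ligand-activated transcription factor that waits in the cytosol with HSP90 and p23. When a dioxin, a polycyclic aromatic compound or a tryptophan metabolite binds, it moves to the nucleus, pairs with ARNT and binds xenobiotic response elements (XRE), whose core letters are GCGTG. *Cyp1a1* is the usual readout of this receptor in the kidney as in other tissues. AHRR competes for ARNT and the TIPARP enzyme ADP-ribosylates the receptor, and both close a negative feedback loop. A ligand of the receptor can raise the target genes and *Ahrr*. The question asked of the data was whether an acute dose of SK-124 was followed by such a rise. *Ahr* and *Arnt*, the receptor and its partner, were described beside these genes.

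Promoter windows from RefSeq (GRCm38.p6, from 250 bases before to 50 bases after a start site) were at hand for 6 of the 7 genes, all but *Ahr*. Of these, 3 are printed 5′ to 3′ on the gene's own strand: *Cyp1a1*, the classical readout, *Ahrr*, the member with the most XRE cores, and *Tiparp*, the only member that rose. Capitals mark GCGTG or its reverse complement CACGC.
Cyp1a1: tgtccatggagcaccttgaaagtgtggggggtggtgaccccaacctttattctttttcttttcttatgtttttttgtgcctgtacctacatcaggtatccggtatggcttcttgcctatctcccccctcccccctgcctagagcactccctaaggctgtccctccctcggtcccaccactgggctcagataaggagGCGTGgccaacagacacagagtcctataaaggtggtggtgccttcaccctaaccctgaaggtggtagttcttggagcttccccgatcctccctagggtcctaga
Ahrr: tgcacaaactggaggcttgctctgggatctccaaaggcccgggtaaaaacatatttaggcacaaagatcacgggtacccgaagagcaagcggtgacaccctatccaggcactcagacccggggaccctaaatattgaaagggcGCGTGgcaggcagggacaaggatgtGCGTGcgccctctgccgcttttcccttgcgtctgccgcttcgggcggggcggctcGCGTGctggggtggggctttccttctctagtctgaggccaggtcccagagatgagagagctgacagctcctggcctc
Tiparp: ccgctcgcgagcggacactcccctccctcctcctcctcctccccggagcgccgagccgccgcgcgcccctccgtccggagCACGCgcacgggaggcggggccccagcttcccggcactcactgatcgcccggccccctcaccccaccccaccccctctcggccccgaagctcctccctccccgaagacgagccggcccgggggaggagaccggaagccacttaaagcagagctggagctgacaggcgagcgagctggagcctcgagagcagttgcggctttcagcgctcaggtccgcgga

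The *Cyp1a1* window is chr9:57697363-57697662 (plus strand), the *Ahrr* window chr13:74292282-74292581 (minus strand) and the *Tiparp* window chr3:65528197-65528496 (plus strand). *Cyp1a1*, *Cyp1b1*, *Arnt* and *Tiparp* each held 1 XRE core, *Ahrr* held 3 and *Cyp1a2* held none. For comparison, 32.4% of the 32851 windows in the table held an XRE core on either strand. The cAMP response element TGACGTCA is bound by CREB factors, whose CRTC coactivators are SIK substrates. It stood in the *Arnt* window, at position -239 from its start, and in no other of the 6 windows. It was searched on both strands, and 1.79% of all windows held it. *Tiparp* had 34 CpG dinucleotides in its window and *Cyp1a1* had 4, against a median of 7 over all windows. Enhancers farther from the start sites were outside these windows.

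Total expected counts (RSEM's estimated reads per gene) ranged from 19244227 to 19771802 per mouse. The 10 genes with the most counts took 38.6% to 46.8% of a library, and SK-124–treated mice 1 to 3 stood above all other mice in this share. Vehicle-treated mouse 3 stood apart from the other vehicle-treated mice, with a chi-square per degree of freedom of 20.8 to 26.9 between its counts and theirs, against 4.69 to 9.14 among the rest. Without it, 3942 genes were called in place of 3453, and the log2 fold change was 0.53 for *Tiparp* (FDR = 4.93e-05, edgeR), 0.07 for *Cyp1b1*, -0.11 for *Ahr* and 0.03 for *Arnt*, with no call for the last 3. Between SK-124–treated mice 1 to 3 and mice 4 to 6, the chi-square per degree of freedom was 13.4 to 32.2. The other pairs of treated mice had 5.91 to 17.4, so the treated group was not uniform either. *Cyp27b1*, the vitamin D–activating enzyme studied with this compound, was at 5.46 ± 2.16 CPM (counts scaled to library size with TMM; SD, n = 6) with vehicle and at 32.4 ± 9.12 CPM with SK-124. All 6 proximal tubule markers checked (*Slc34a1*, *Lrp2*, *Cubn*, *Slc5a2*, *Slc22a6* and *Aqp1*) were abundant, and none of them was called with TMM scaling, while 1 was lower with library totals only and on the log2(TPM) scales. Of all genes tested, 24.4% were called with TMM scaling. The summed level of these 6 markers, in transcripts scaled for length (TPM), ranged from 2497 to 2981 with vehicle and from 2072 to 2550 with SK-124.

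Across the battery, *Tiparp* rose 1.49-fold with SK-124 and no other tested member passed the test. *Cyp1a1* stayed near the detection limit in both groups, *Cyp1a2* had no read in any mouse, and *Ahrr* had at most 3 counts in a mouse. *Cyp1b1*, *Ahr* and *Arnt* were well detected, at 1.03-fold, 0.949-fold and 1.06-fold of their vehicle levels. Of the 4 tested members, 1 was called higher and 0 lower by the quasi-likelihood test of edgeR, where a call means a Benjamini-Hochberg false discovery rate (FDR) below 0.05. Of all genes tested, 24.4% were called, 10.8% higher and 13.5% lower, so that 44.5% of calls were higher with TMM scaling. That share was 20.3% with library totals only and 19.0% on the log2(TPM) scales. In bulk tissue, a change in the number of cells that express a gene and a change in RNA per cell cannot be told apart.

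**Figure D1:**
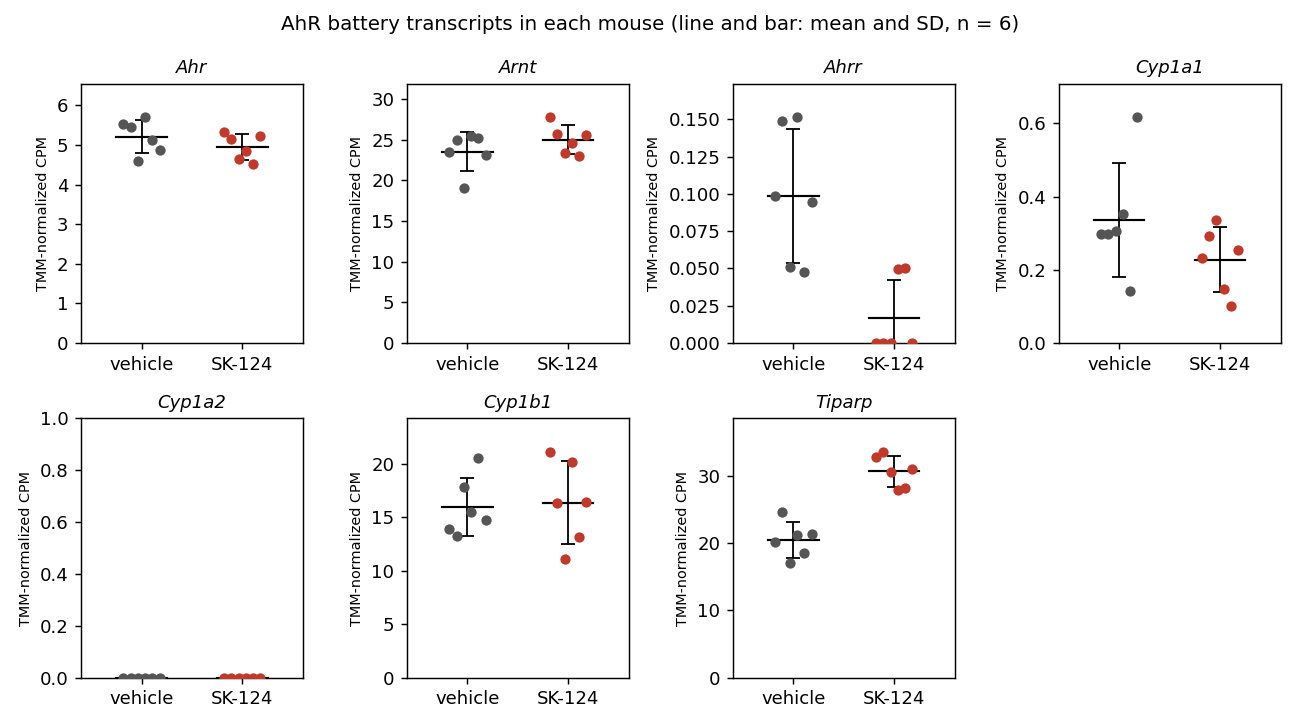
TMM-normalized CPM of the 7 AhR battery genes in each mouse (1 dot per mouse, vehicle in grey, SK-124 in red), with the mean as a line and the SD as a bar (n = 6). *Tiparp* is the panel in which the groups separate, at 17.0 to 24.7 CPM with vehicle and 27.9 to 33.5 CPM with SK-124. *Cyp1a2* lies at 0 in all 12 mice.

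*Cyp1a1* (ENSMUSG00000032315.6, chromosome 9, 57687928 to 57703824 in GENCODE M21, GRCm38) encodes the cytochrome P450 that oxidizes polycyclic aromatic ligands and so clears them. Its lowest, median and highest values were 0.142, 0.302 and 0.616 CPM with vehicle. With SK-124 they were 0.10, 0.243 and 0.336 CPM. No SK-124–treated mouse exceeded the highest vehicle-treated mouse, 5 of the 6 lay within the vehicle range and 1 lay below it. These values came from 41 counts over the vehicle group and 25 over the SK-124 group, and no mouse had more than 13. The ratio of the summed counts, SK-124 over vehicle and scaled to library size, was 0.664 with an exact binomial 95% interval from 0.387 to 1.12, which covers counting error only. The exact permutation test, two-sided and on log2(CPM + 0.5), gave p = 0.154. No difference was detectable at this depth.

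*Cyp1a2* (ENSMUSG00000032310.4, chromosome 9, 57676937 to 57683703), the P450 best known from liver, is the neighbour of *Cyp1a1* on the opposite strand. Between their annotated spans lie 4224 bases and no annotated gene. The *Cyp1a1* promoter window printed above lies inside the annotated *Cyp1a1* span, downstream of its first base. *Cyp1a2* had 0 counts among 117319504 in the vehicle group and 0 among 116521897 in the SK-124 group. A count of 0 allows up to 3 counts over a group, or 0.0246 CPM with vehicle and 0.0268 CPM with SK-124. No transcript was detectable in either group, and no fold change can be given.

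*Cyp1b1* (ENSMUSG00000024087.4, chromosome 17, 79701537 to 79715061), the third P450 of the family and the one expressed mostly outside the liver, was the most abundant of the 3. Its lowest, median and highest values were 13.2, 15.1 and 20.5 CPM with vehicle and 11.1, 16.4 and 21.1 CPM with SK-124. The groups overlapped, with SK-124–treated mice on both sides of the vehicle range, 1 above it and 2 below. The log2 fold change was 0.04 (SE 0.14, FDR = 0.885, edgeR), and its 95% interval ran from a 0.834-fold to a 1.26-fold level. With library totals only the log2 fold change was -0.076, also without a call. Mice of one group differed more in *Cyp1b1* than counting alone gives, with a coefficient of variation of 17.2% with vehicle and 23.6% with SK-124, against 5.55% and 5.72% from counting. The gene whose deviations from the group means followed those of *Cyp1b1* most closely was *Igfbp3*, with a Pearson r of 0.962 over 12 mice, followed by *Sdc3* and *Plxnd1*, both at 0.942. These are the 3 highest of 13008 genes, so they are given as a description.

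*Cyp1b1* is expressed by stromal and vascular cells, and markers of these cells were therefore examined beside it. For comparison, 10.8% of all genes tested were called higher and 13.5% lower. Of 8 fibroblast and mural markers, 2 were higher (*Tagln* and *Acta2*, neither of them on the log2(TPM) scales) and 2 lower (*Pdgfrb* and *Col1a2*), against 1 higher and 3 lower with library totals only and 0 higher and 4 lower with SK-124–treated mice 1 to 3 alone, and their summed level ranged from 51.6 to 76.3 TPM with vehicle and from 41.9 to 80.2 TPM with SK-124. Of 8 endothelial markers, 0 were higher and 1 was lower (*Kdr*, a log2 fold change of -0.85, SE 0.16), while 3 were lower with library totals only and 2 with SK-124–treated mice 1 to 3 alone. Endothelial markers had sums of 146.5 to 193.2 TPM and 100.7 to 175.3 TPM. None of the defining markers was at 0, and their part in the *Cyp1b1* values was not tested.

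No change of the receptor's own transcript was called. *Ahr* (ENSMUSG00000019256.17, chromosome 12, 35497974 to 35535038) had lowest, median and highest values of 4.60, 5.29 and 5.70 CPM with vehicle and 4.51, 5.0 and 5.33 CPM with SK-124. The log2 fold change was -0.08 (SE 0.09, FDR = 0.580, edgeR), and the 95% interval ran from 0.836-fold to 1.08-fold. Of the 6 SK-124–treated mice, 5 lay within the vehicle range and 1 just below it. On log2(TPM + 0.5) the same comparison gave a difference of -0.18 (two-sided exact permutation test, p = 0.0216), on a scale where the median gene also shifted down, by 0.11 for log2(TPM + 1) and by 0.14 for log2(TPM + 0.1).

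*Arnt* (ENSMUSG00000015522.18, chromosome 3, 95434388 to 95497240), the partner shared by AhR and the hypoxia-inducible factors, was at 19.0, 24.2 and 25.4 CPM (lowest, median, highest) with vehicle. With SK-124 it was at 23.0, 25.1 and 27.7 CPM. Of the treated mice, 3 of 6 exceeded the highest vehicle-treated mouse, and the other 3 lay within the vehicle range. The log2 fold change was 0.09 (SE 0.07, FDR = 0.438, edgeR), with an interval from 0.954-fold to 1.18-fold, and it was -0.031 with library totals only. A processed pseudogene, *Gm42672*, lies within *Arnt* and had at most 2 counts in a mouse.

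*Ahrr* (ENSMUSG00000021575.16, chromosome 13, 74211118 to 74292331), the repressor that AhR ligands induce in many cell types, was barely detected. The 6 vehicle-treated mice had between 1 and 3 counts each, 12 in all. Of the SK-124–treated mice, 4 had 0 counts and 2 had 1 count each. In CPM, 4 treated mice lay below the vehicle range, 2 within it and none above it. The ratio of the summed counts was 0.181, with an exact binomial 95% interval from 0.0197 to 0.815, for counting error only. The same exact permutation test gave p = 0.00866, 1 of 7 such tests, unadjusted. In a fit across all genes with any count, the FDR of *Ahrr* was 0.0708 (edgeR), so the difference did not pass the adjusted threshold.

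**Figure D2:**
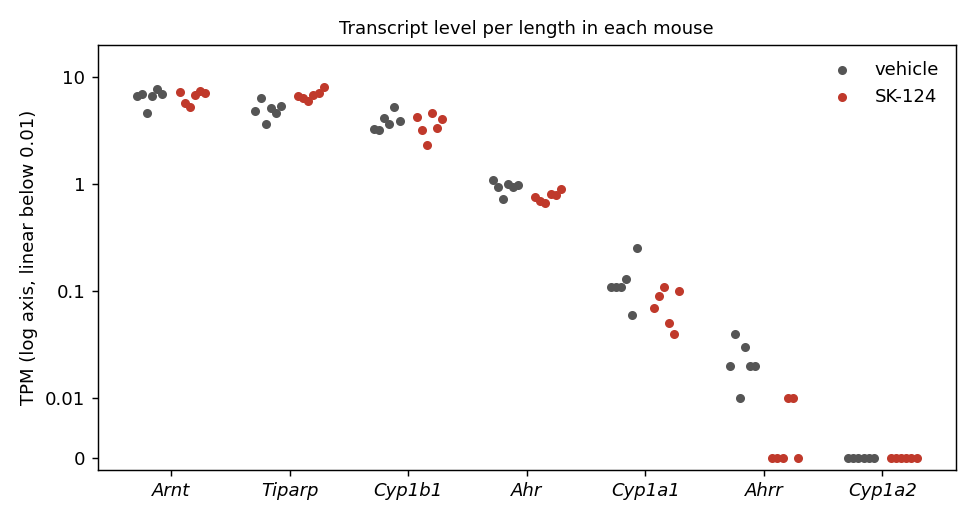
TPM (a level per transcript length; log axis, linear below 0.01) of the 7 genes in each mouse, ordered by their mean with vehicle. *Arnt*, *Tiparp* and *Cyp1b1* lie between 2.33 and 8.03 TPM, *Ahr* between 0.67 and 1.08 TPM, and *Cyp1a1* at or below 0.25 TPM.

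*Tiparp* (ENSMUSG00000034640.9, chromosome 3, 65528410 to 65555518) encodes a mono-ADP-ribosyltransferase that is induced by AhR and by other signals and that restrains the receptor. Its lowest, median and highest values were 17.0, 20.6 and 24.7 CPM with vehicle and 27.9, 30.8 and 33.5 CPM with SK-124. All 6 treated mice lay above all 6 vehicle-treated mice, a separation in this direction shown by 6.32% of all genes tested, with 6.65% separated downward and 13.0% either way. Mean levels were 20.5 ± 2.64 CPM with vehicle and 30.6 ± 2.31 CPM with SK-124 (SD, n = 6). The log2 fold change was 0.58 (SE 0.08, FDR = 4.11e-05, edgeR) with a 95% interval from 1.33-fold to 1.68-fold. The two-sided exact permutation test gave p = 0.00216, the smallest that 6 mice against 6 allow. The antisense pseudogene *4931440P22Rik* overlaps the start of *Tiparp* and had at most 13 counts in a mouse, where *Tiparp* had 333 to 611, and the sources used here do not say whether counting used strand.

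The size of this rise was moderate among the genes that changed. Of the 1536 genes called higher, 515 had a larger log2 fold change than *Tiparp*. In SK-124–treated mice 1 to 3, the libraries with the largest share in few genes, the log2 fold change against all vehicle-treated mice was 0.66 (FDR = 0.000438, edgeR). In treated mice 4 to 6 it was 0.51 (FDR = 0.0031, edgeR), so the rise was present in both sets of mice.

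**Figure D3:**
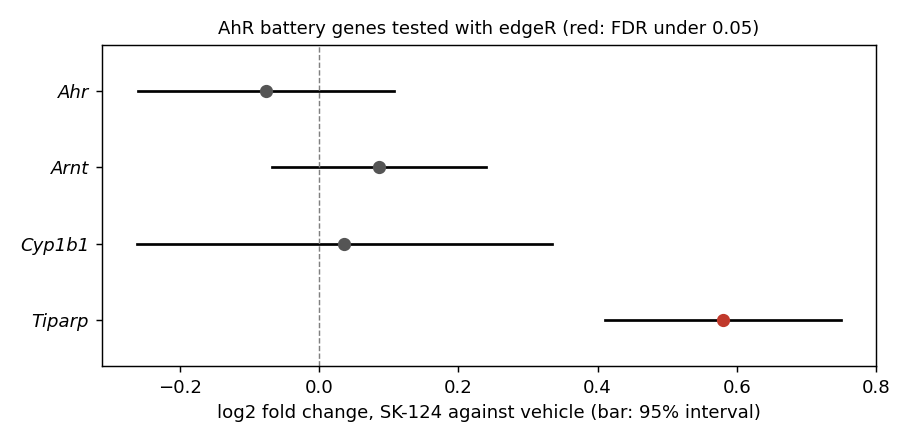
Log2 fold changes of the 4 AhR battery genes tested (dot) with their 95% intervals (bar) from edgeR's quasi-likelihood fit, SK-124 against vehicle. The interval of *Tiparp*, from 0.41 to 0.75, lies above 0, and those of *Ahr*, *Arnt* and *Cyp1b1* include 0.

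Because a called and an uncalled gene need not differ from each other, the ratio of *Tiparp* to each other member was compared between the groups in 6 tests. The log2 ratio of *Tiparp* to *Ahr* rose by 0.64 and to *Arnt* by 0.49, on log2(CPM + 0.5), and for both all 6 treated mice stood above the vehicle range (exact permutation, two-sided, p = 0.00216, unadjusted). The ratio to *Cyp1b1* rose by 0.56 with 4 of 6 treated mice above the vehicle range (p = 0.0216, same exact test). In these unadjusted tests *Tiparp* thus changed differently from *Ahr* and *Arnt*, and less clearly so from *Cyp1b1*, where the groups overlapped. *Tiparp* was set over each other member as the called gene, so its own separation enters every ratio. The pseudocount sets much of the ratios to *Cyp1a1*, *Cyp1a2* and *Ahrr*, so these are not given.

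Per transcript length, the order of levels with vehicle was *Arnt* (6.56 ± 1.04 TPM, SD, n = 6), *Tiparp* (4.97 ± 0.904), *Cyp1b1* (3.88 ± 0.773), *Ahr* (0.945 ± 0.118), *Cyp1a1* (0.128 ± 0.0640), *Ahrr* (0.0233 ± 0.0103) and *Cyp1a2* (0). The ranges of *Arnt* and *Tiparp* overlapped, as did those of *Tiparp* and *Cyp1b1*, and the other neighbours were separate. With SK-124, *Tiparp* (6.81 ± 0.708 TPM) and *Arnt* (6.57 ± 0.871 TPM) overlapped again, and *Tiparp* lay above *Cyp1b1* (3.61 ± 0.815 TPM) in all 6 mice. *Tiparp* was above *Arnt* in 0 of 6 vehicle-treated mice and in 3 of 6 treated mice.

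Within groups, *Ube2d3* followed *Tiparp* most closely, with a Pearson r of 0.952 between their deviations from the group means over 12 mice, then *Glyr1* at 0.926 and *Ddx42* at 0.924. For *Arnt* the 3 closest genes were *Parp4* (0.966), *Dstyk* (0.946) and *Prkaa1* (0.935), and for *Ahr* they were *Ccnt1* (0.903), *Upf2* (0.887) and *Gpatch2* (0.880). All 12 libraries share scaling and may share preparation, and these values are descriptions.

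The other genes of the pathway were described from fixed lists. In the cytosolic complex that holds the receptor, of *Hsp90aa1*, *Hsp90ab1* and *Ptges3* (p23), 0 of 3 were called, with log2 fold changes from -0.03 to 0.00. Of 13 further AhR target genes, 9 were tested, 4 were higher and 2 lower, with a median log2 fold change of 0.13, against -0.01 over all genes tested. Called higher were 10.8% of all genes tested, and called lower 13.5%. The 2 with the smallest p that rose were *Xdh*, the urate-producing xanthine oxidoreductase, from 12.7 ± 1.76 to 17.0 ± 2.02 CPM (log2 fold change 0.43, FDR = 0.00332, edgeR), and *Ugdh*, which makes UDP-glucuronic acid, from 46.3 ± 1.44 to 52.6 ± 3.63 CPM (0.18, FDR = 0.0184). The 2 that fell were *Scin* (-0.36, FDR = 0.035, edgeR) and *Cyp2s1*, a P450 outside family 1 (-0.19, FDR = 0.0422, edgeR). The rises in this list depended on the scaling: with library totals only 0 were called higher, on the log2(TPM) scales 1 was (*Xdh*), and *Ugdh* ranged from -0.036 to 0.235 over the 24 alternatives. The number lower stayed at 2 in these 3 fits, and *Scin* and *Cyp2s1* lost their call in 8 and 11 of the 24 alternatives.

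The other 3 tested genes of this list were not called, *Slc46a3* among them. *Nqo1*, the quinone reductase shared by the AhR and NRF2 programs, was at 19.2 ± 3.18 CPM with vehicle and 21.1 ± 2.96 CPM with SK-124 (log2 fold change 0.13, FDR = 0.407, edgeR). *Ugt1a6a*, a glucuronosyltransferase, had a log2 fold change of 0.11 (FDR = 0.513, edgeR), and its reads are shared with other *Ugt1a* genes, so that RSEM's own SD of its count reached 13.7%. *Aldh3a1*, *Gsta1*, *Ido1* and *Serpinb2* had few counts and were not tested.

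**Figure D4:**
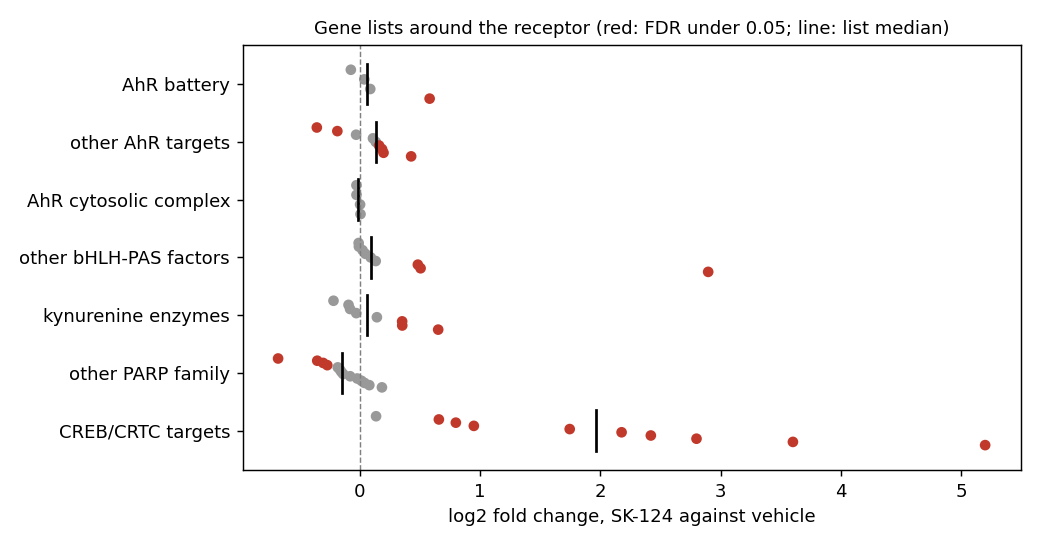
Log2 fold changes (SK-124 against vehicle) of the genes tested in each of 7 lists, 1 dot per gene, red where the FDR was under 0.05, with the list median as a line. The median was 0.06 for the AhR battery (-0.05 with library totals only), 0.13 for other AhR targets (-0.04 on the log2(TPM) scales), -0.15 for the other PARP genes and 1.96 for CREB and CRTC targets. Over all genes tested it was -0.01 with TMM scaling, -0.12 with library totals only, and -0.11 and -0.14 on the log2(TPM) scales.

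*Arnt* belongs to the basic helix-loop-helix PAS family. A list of ARNT-like partners and other factors of this family held 12 genes, of which 9 were tested. Among these, 3 were higher and 0 lower, against 10.8% and 13.5% of all genes tested. *Hif3a*, a short-lived antagonist of the hypoxia response, rose from 0.731 ± 0.319 to 5.48 ± 0.901 CPM (log2 fold change 2.90, SE 0.20, FDR = 1.25e-08, edgeR). *Bmal1*, listed as *Arntl* in the annotation and a clock activator, rose by 0.50 on the log2 scale (FDR = 0.00272, edgeR), and *Sim2* rose by 0.48 (FDR = 0.00528, edgeR). The other 6, which include *Hif1a*, *Epas1* and *Arnt2*, were not called. *Hif3a* and *Bmal1* were called in all 24 alternatives, and *Sim2* was not called on the log2(TPM) scales or with SK-124–treated mice 1 to 3 alone.

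Enzymes of the kynurenine pathway make and remove tryptophan metabolites that can bind AhR. Of 11 listed, 8 were tested, 3 were higher and 0 lower, against 10.8% higher and 13.5% lower among all genes tested. *Aadat*, which converts kynurenine to kynurenic acid, rose from 289.3 ± 26.4 to 454.2 ± 33.9 CPM (log2 fold change 0.65, SE 0.07, FDR = 1.89e-06, edgeR). Its groups did not overlap, as for 6.32% of all genes tested in this direction, and it was called in all 24 alternatives. *Kmo*, which hydroxylates kynurenine, rose by 0.35 on the log2 scale (FDR = 0.000467, edgeR), and *Kyat1*, a kynurenine aminotransferase, by 0.35 (FDR = 0.00446, edgeR), and neither was called on the log2(TPM) scales. The enzymes that open the pathway were low or not called: *Tdo2* had at most 1 count and *Ido1* at most 3 counts in a mouse, and *Ido2* had a log2 fold change of -0.22 (FDR = 0.166, edgeR).

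*Tiparp* belongs to the PARP family, and its 14 listed relatives were all tested. None was called higher and 4 were lower, among them *Parp16*, from 8.82 ± 0.877 to 5.51 ± 1.04 CPM (log2 fold change -0.68, FDR = 0.000294, edgeR), and *Parp9* (-0.27, FDR = 0.0137, edgeR). The other 2 were *Parp8* and *Parp12*. Over all genes tested, 10.8% were called higher and 13.5% lower. *Parp16* was called lower in all 24 alternatives, and the number lower in the list was 7 with library totals only and 2 on the log2(TPM) scales. No relative of *Tiparp* was called higher in any of these fits.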

How the data were processed

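Whole-kidney RNA of 12 mice was sequenced on the BGISEQ500 platform. Per the labels' processing notes, STAR 2.7.2b, RSEM 1.3.0, FastQC and DESeq2 were used with mm10. The authors deposited expected counts (estimated reads per gene, not normalized) together with TPM and FPKM, scaled by RSEM to effective length and library total. FPKM was not used here. Annotation release and strand setting are not given in the sources used here.

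Identifiers were matched to GENCODE M21 (54349 with and 55141 with or without version). Expected counts were rounded, filtered with filterByExpr, scaled with TMM and tested with edgeR 4.0.16 (quasi-likelihood, no replicate block) in R 4.3.3. Single genes were also tested by exact permutation of 12 mice over 924 assignments, on log2(CPM + 0.5). Python 3.11.15 and scipy 1.17.1 were used. Depth (19244227 to 19771802 counts) limits mainly *Cyp1a1*, *Cyp1a2* and *Ahrr*. Intervals of counts cover counting error only.

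Members, lists and alternatives were chosen with earlier results of these data known. Named genes were the 7 members, called list genes (for lists with more than 4 called, the 2 with the smallest p per direction), the 3 genes most like each tested member, and *Cyp27b1*. Genes outside this rule were named, with their values known, to complete a list's account. The alternatives tried were DESeq2 1.42.0, RLE, library totals, no or stricter filter, unrounded counts, a replicate block, robust dispersion, limma 3.58.1 on log2(TPM + 1) and log2(TPM + 0.1), other pseudocounts, and mice left out. Replicate numbers belong to different mice. No 2 libraries of one group agreed within sampling noise (lowest chi-square per degree of freedom 4.69 over 30 pairs). Some genes of the lists are not reported here.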

Additional observations from a re-analysis of the deposited data

Results flagged for a closer look

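*Arnt* in vehicle-treated mouse 3 was at 19.0 CPM, far from the other 5 vehicle-treated mice, which had 23.2 to 25.4 CPM. It was the only value so far from its group among 12 sets of 6 values tested for the battery genes (Dixon's gap test), where chance gives about 1 in 20. Without this mouse the log2 fold change of *Arnt* was 0.03 (FDR = 0.726, edgeR) in place of 0.09.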

How the results depend on the processing

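*Tiparp* was called higher under each of the 24 alternatives of its fit, with log2 fold changes from 0.40 (limma on log2(TPM + 1)) to 0.66 (SK-124–treated mice 1 to 3 alone) and FDR up to 0.0153, and it was the only member called in each. *Ahr* kept a log2 fold change under 0 and no call in all 24 fits. With library totals only, the median over all genes was a log2 fold change of -0.12. The log2 fold change was then -0.031 for *Arnt* and -0.076 for *Cyp1b1*, 777 genes were higher and 3058 lower, and 20.3% of calls were higher against 44.5% with TMM. *Cyp1b1* was at -0.088 and -0.11 with limma on log2(TPM + 1) and log2(TPM + 0.1), at -0.10 in the exact test on log2(TPM + 0.5), and between -0.047 and 0.13 with 1 mouse left out, below 0 without vehicle-treated mouse 1 or 2 or SK-124–treated mouse 1 or 4 (-0.00092, -0.012, -0.047 and -0.033). It passed no threshold in any of them. The exact test of *Ahr* on log2(TPM + 0.5) gave -0.18 (permutation p = 0.0216). With limma, 500 and 498 genes were higher for the 2 pseudocounts (19.0% of calls each). With SK-124–treated mice 1 to 3 alone, 2298 genes were called and 1233 were lower, and with mice 4 to 6 alone 1267 were lower, from fewer mice. With the replicate number as a block (replicate block), the log2 fold change was 0.59 for *Tiparp*, 0.02 for *Cyp1b1*, -0.07 for *Ahr* and 0.09 for *Arnt*, and 3466 genes were called against 3453. Same-numbered mice had correlations of -0.147 to 0.24 between their deviations, and 2 of 6 numbers correlated best with their own. These 6 correlations are too few to decide whether the numbers pair the mice. The cause of the other shifts was not tested. Depth limits *Cyp1a1*, *Cyp1a2* and *Ahrr* to the statements above.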

Other observations

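Among the members themselves, *Ahr* and *Arnt* varied together within groups (Pearson r of deviations from the group means 0.847 over 12 mice), and *Tiparp* had values of 0.649 with *Ahr* and 0.671 with *Arnt*, while *Cyp1b1* had values of 0.165, 0.250 and -0.300 with *Ahr*, *Arnt* and *Tiparp*. These 12 mice share scaling, and the sources used here do not say whether their libraries were prepared together. The values are descriptions.

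CREB and CRTC target genes, the class that SIK inhibitors are known to raise, were listed beside the AhR battery. Of 10, 9 were higher and 0 lower, against 10.8% and 13.5% of all genes tested. The median log2 fold change of the 10 was 1.96, and *Crem* (1.74, FDR = 5.50e-10, edgeR) and *Nr4a3* (5.20, FDR = 3.26e-09, edgeR) had the smallest p. *Fos* was the one not called (0.13, FDR = 0.925, edgeR). Its vehicle level was 5.28 ± 10.7 CPM (SD, n = 6). Without vehicle-treated mouse 5 all 10 were called higher, with a median of 2.57, and in no other alternative were all 10 called. That fit is 1 of those that left out each mouse in turn, so it is given as a description. With library totals only and on the log2(TPM) scales, 9 were higher and 0 lower.

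Markers of other cells in or near the kidney were as follows, where 10.8% of all genes tested were called higher and 13.5% lower. Of 6 loop and distal nephron markers 1 was higher (*Aqp2*) and 1 lower (*Atp6v1b1*), of 6 tested immune markers 1 was higher (*Itgam*) and 1 lower (*Cd79a*), and of 5 red cell markers 0 were called. Of 6 hepatocyte markers, 4 were tested and 1 was higher (*Fga*, log2 fold change 1.76). *Alb*, *Apoc3* and *Fgb* were not called (0.11, 0.26 and 0.41). *Ahsg* had at most 2 counts in a mouse and *Cyp7a1* had 0 counts. The source of the *Fga* transcripts was not tested. Of 4 adrenal markers 1 was tested and 0 were called, and 0 of 4 adipocyte markers were tested. Of the immune markers, 0 were higher and 4 lower with library totals only, and 0 were higher and 2 lower on the log2(TPM) scales.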
